A study of Rattus norvegicus with 13 samples.

Results

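The genes described here are 10 genes of vascular cells: the transcription factors Sox18 and Sox17, the junction and adhesion proteins Pecam1 and Cdh5, the vascular endothelial growth factor (VEGF) receptors Kdr and Flt1, von Willebrand factor (Vwf), the hyaluronan receptor Lyve1, the endothelial nitric oxide synthase Nos3 and the growth factor Vegfa. They were found by symbol in the annotation of the array, and the brightest probe of a symbol would have been used had there been several. Of the 10 genes, 9 were measured, each by 1 probe, among 14506 genes in all. No probe carried the name Vwf in the annotation used here, so Vwf is not analysed here.

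RNA from the fat of 13 daughters, all Sprague Dawley rats (an outbred strain), was hybridised to 1 array each. The 7 rats called controls had fathers on standard chow with 9% fat, and the 6 high-fat rats had fathers on pellets with 43% fat. All fathers were 15 weeks old at mating, their mates ate chow, and all daughters ate chow from weaning at 3 weeks until their fat was collected at 14 weeks, so no daughter ate the fathers' pellets. The comparison asks whether a father's diet is reflected in the vessels of a daughter's fat at the RNA level. The fat depot is not given. Daughters are named by the numbers in their labels, which run from 619 to 631 (3 controls and 4 high-fat) and from 656 to 664 (4 controls and 2 high-fat), and the meaning of these ranges is not given. The labels do not tell which daughters were littermates or had the same father, so each p-value reflects only the spread between the arrays at hand. Levels are log2 values, on which a difference of 1 is a doubling, and precision is limited by how few arrays there are.

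Endothelial cells line all blood and lymphatic vessels, and fat is densely supplied with capillaries that deliver fatty acids and glucose to adipocytes. VEGF-A, made by adipocytes and other cells, acts through the receptor VEGFR2 (Kdr) on endothelial cells, while VEGFR1 (Flt1) binds the same ligand tightly and can limit its action. Sox17 and Sox18 belong to the group F of Sox factors, which act in the making of arteries, veins and lymphatics. PECAM-1 and VE-cadherin (Cdh5) hold neighbouring endothelial cells together, the nitric oxide made by Nos3 relaxes vessels, and Lyve1 marks lymphatic endothelium and some macrophages of fat. In whole tissue, fewer cells of a type and less RNA per cell cannot be told apart.

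Promoters of RefSeq (rat build GRCr8, 250 bases before to 50 bases after each start) were listed for 5 of the 10 genes in 6 entries, namely Lyve1, Nos3, Flt1, Kdr and, with 2 entries, Vegfa. Sox18, Sox17, Pecam1, Cdh5 and Vwf had no entry. The 250 bases before the start are shown for the 2 VEGF receptors, since both followed the level of other endothelial genes across the arrays, as described further on, while their promoters differ in content. Capitals mark matches to any of these motifs on either strand. The first is the core recognised by transcription factors of the ETS family, AGGAAG, and the second is the variant of that ETS family core with a different opening base, CGGAAG. The others are the TATA box of many tissue-specific promoters, TATAAA, the element through which cyclic AMP acts on transcription, TGACGTCA, and the box that the ubiquitous factor Sp1 recognises in promoters rich in G and C, GGGCGG, shown as its complement where it lies on the other strand.
Flt1, chr12:12333180-12333429, plus strand: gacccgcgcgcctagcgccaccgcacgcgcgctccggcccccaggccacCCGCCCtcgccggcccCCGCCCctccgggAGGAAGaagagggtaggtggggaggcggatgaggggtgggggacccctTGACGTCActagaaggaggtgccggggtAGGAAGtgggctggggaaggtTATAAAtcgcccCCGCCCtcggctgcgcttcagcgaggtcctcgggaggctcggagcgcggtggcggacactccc
Kdr, chr14:32571813-32572062, plus strand: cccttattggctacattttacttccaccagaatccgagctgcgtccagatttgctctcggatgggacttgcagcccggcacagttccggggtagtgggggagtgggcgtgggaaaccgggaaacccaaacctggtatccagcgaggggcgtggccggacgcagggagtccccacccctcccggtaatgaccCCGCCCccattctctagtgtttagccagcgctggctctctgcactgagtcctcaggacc

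The Flt1 sequence holds AGGAAG at 2 places, -172 and -96 relative to the start, a TATAAA at -75, a TGACGTCA at -124 and 3 GC boxes. The Kdr sequence holds 1 GC box, at -59, and none of the other marked motifs. The GC content of the full 300-base windows was 72.7% for Flt1 and 61.0% for Kdr, against a median of 51.7% over all 33469 promoters. Of all promoters, 34.5% hold AGGAAG, 16.6% CGGAAG, 14.2% TATAAA, 1.83% TGACGTCA and 33.1% GGGCGG in such a window. Among the other windows, AGGAAG was also found in Lyve1 (at -43) and Nos3 (at -54), and the GC box in Nos3 and in 1 Vegfa entry. The Sox motif ACAATG, present in 13.2% of promoters, was found in Nos3, the GATA motif AGATAA (11.6% of promoters) in 1 Vegfa entry, and neither ACAAAG (18.8%) nor the hypoxia element core ACGTG (19.3%) in any of the 6. A match is a run of letters and does not show that a factor binds there.

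One control array stood apart in these genes. Control 658 was the lowest of all 13 arrays for 6 of the 9 measured genes (Sox18, Sox17, Pecam1, Kdr, Flt1 and Vegfa). It differed from the mean of the other 6 controls by -0.85 for Sox18, -0.59 for Kdr, -0.56 for Flt1, -0.46 for Sox17, -0.45 for Pecam1, -0.29 for Vegfa and -0.17 each for Cdh5 and Nos3, and by 0.15 for Lyve1. The same array had the smallest standard deviation over genes (1.59, against 1.70 to 1.85 on the others) and the lowest mean of 27 other endothelial genes (9.15, against 9.51 to 9.76). It had the highest mean of 14 pericyte and smooth muscle genes (10.96, against 10.17 to 10.46), with Acta2, smooth muscle actin, at 14.00 and Myh11, smooth muscle myosin, at 11.92. Results are therefore given with and without it. The mean of 18 adipocyte genes lay between 12.07 and 12.22 in controls (median 12.15) and between 12.19 and 12.32 in high-fat daughters (median 12.24). Skeletal muscle genes were high on controls 662 and 664 and high-fat 629 (11.36 to 11.66) and intermediate on high-fat 619 (8.98), against 7.24 to 7.52 elsewhere. Ucp1, the uncoupling protein of brown and beige fat, lay between 9.28 and 11.02 on controls 658 and 662 and high-fat 629 and 663 and between 6.11 and 7.40 on the others. The part of these tissues and of array spread in the results was not tested except where a value with or without them is given.

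**Figure D1:**
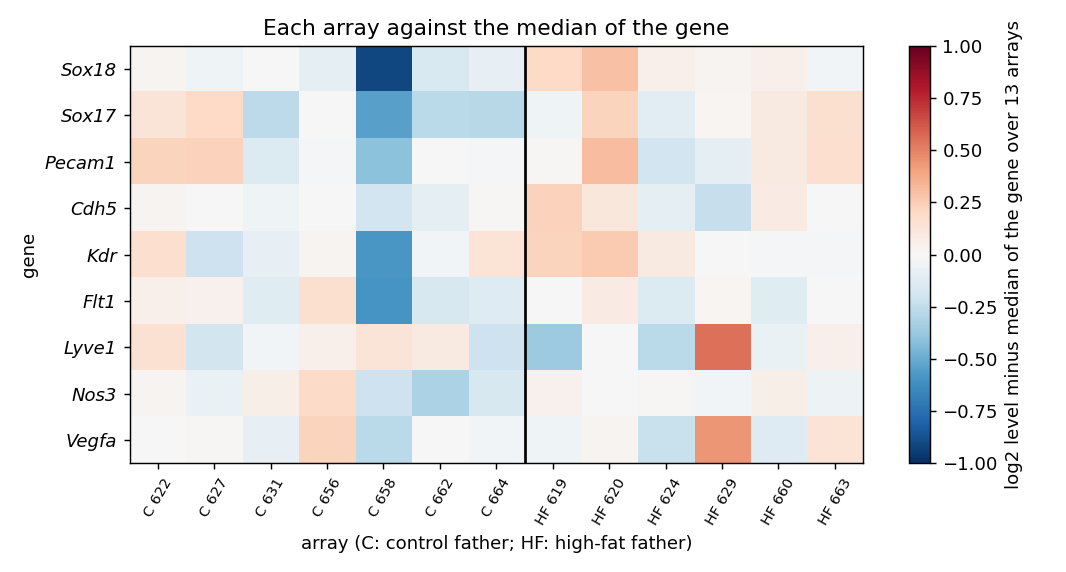
Log2 level of each measured gene on each array minus that gene's median over the 13 arrays, with controls (C) left of the line and high-fat daughters (HF) right of it. Control 658 is the darkest blue column for Sox18, Kdr and Flt1, and high-fat 629 is the highest array for Lyve1 and Vegfa.

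Between the groups, none of the 9 measured genes passed limma's test after Benjamini-Hochberg adjustment over all genes at 0.05, and neither did any of the 14506 genes (0.0%). The mean was higher in high-fat daughters for 8 of the 9 genes, against 58.0% of all genes. The median difference, high-fat minus control, was 0.07 for the 9 genes and 0.03 for all genes, and it was 0.03 and 0.01 without control 658. All 9 were bright, above the middle of the mean levels. Among all genes above that middle the median was 0.09, so the 9 were not shifted up against genes of that brightness. Of those brighter genes with an unadjusted p under 0.05 (limma), 97.0% were higher in high-fat daughters. With quantile normalization applied again, which makes the arrays alike in spread, only Sox18, Sox17 and Kdr kept a higher mean in high-fat daughters, and the median of the 9 was -0.01 against 0.01 for all genes. An unadjusted p under 0.05 was reached by 0 of the 9 genes and by 7.96% of all genes (5.42% higher and 2.54% lower). It was reached by 2 of the 9 genes without control 622 (12.2% of all genes) and by 1 of the 9 without control 627 (7.44%), 631 (4.92%) or 658 (4.7%), with array weights (15.0%), without the 3 arrays of smallest spread (9.62%), with only the brighter genes tested (9.11%) and in daughters 656 to 664 (0.931%). In the model without limma's variance moderation 0 of the 9 genes reached it, against 7.41% of all genes. Of the genes with such a p, 68.1% were higher in high-fat daughters, and 53.5% were once each array was centred on its median. The groups overlapped for each of the 9 genes, and 0.0827% of all genes had groups that did not overlap.

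**Figure D2:**
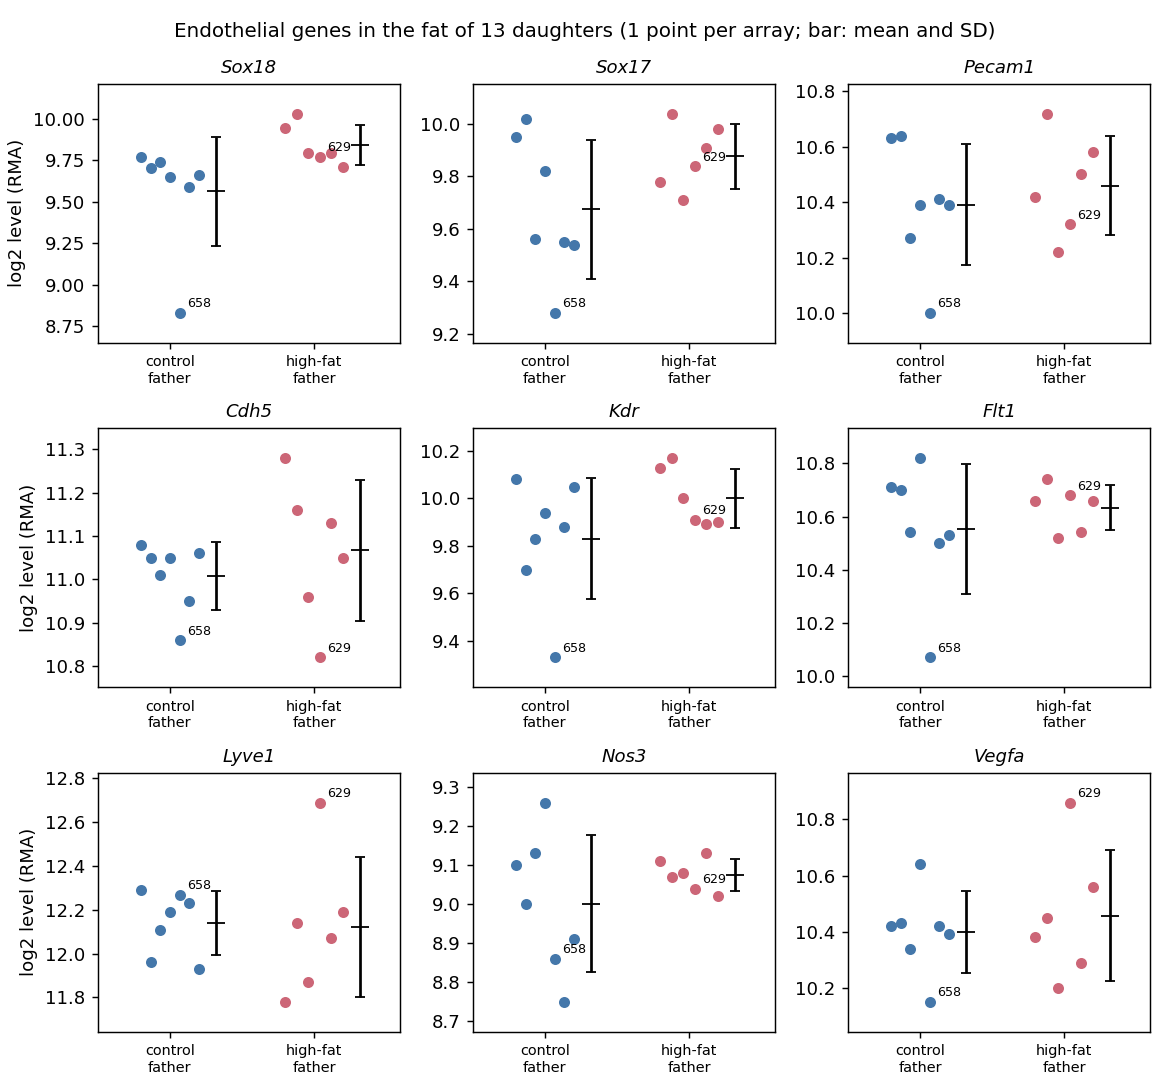
Log2 levels of the 9 measured genes on each array, control fathers in blue and high-fat fathers in red, with the mean and standard deviation of each group as a bar beside the points (7 and 6 arrays, axes do not start at 0). The groups overlap for each gene, and control 658 is the lowest point for Sox18, Sox17, Pecam1, Kdr, Flt1 and Vegfa.

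Of the transcription factors, Sox18 had the largest difference of the 9 genes. Its level in controls was between 8.83 and 9.77 with a median of 9.66, and in high-fat daughters between 9.71 and 10.03 with a median of 9.79. All 6 high-fat arrays lay above the control mean, and 5 of the 7 controls lay below the lowest high-fat array. The difference was 0.28 ± 0.13 (SE, 7 against 6 arrays), with a 95% interval of -0.0032 to 0.56 and an adjusted p of 0.53. Without control 658 the control mean changed from 9.56 ± 0.33 (SD, n = 7) to 9.68 ± 0.06 (SD, n = 6), and the difference was 0.15 ± 0.06 with an adjusted p of 0.82 (limma), so that 1 array set nearly all of the control spread. Its unadjusted p was then 0.02198, and without that array 1 of the 9 genes and 4.7% of all genes had an unadjusted p under 0.05. Sox18 kept a higher mean in high-fat daughters under each alternative tried, with values from 0.09, with array spread as a covariate, to 0.32, in daughters 656 to 664 alone. Sox17 ranged from 9.28 to 10.02 in controls (median 9.56) and from 9.71 to 10.04 in high-fat daughters (median 9.88). All 6 high-fat arrays were above the control mean, but controls 622 and 627 were among the highest of all. The difference was 0.21 ± 0.11 (adjusted p 0.53, limma), and 0.14 ± 0.10 without control 658. Sox7, the third factor of the group and no member of the set, differed by 0.19 ± 0.09 (unadjusted p 0.04099, adjusted p 0.53, limma), and by 0.13 without control 658.

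Of the junction proteins, Pecam1, which joins endothelial cells to one another and to leukocytes and is also found on platelets, reached 10.64 in controls (median 10.39), with its lowest value on control 658, and lay between 10.22 and 10.72 in high-fat daughters (median 10.46). Apart from control 658, both groups spanned nearly the same range. The difference was 0.07 ± 0.11 (adjusted p 0.74, limma) and 0.01 ± 0.09 without control 658. Of 4 measured platelet genes, 1 was higher and 3 lower in high-fat daughters, with means per array of 7.60 to 7.92 in controls and 7.58 to 7.87 in high-fat daughters. Cdh5, the cadherin of endothelial junctions, was between 10.86 and 11.08 in controls (median 11.05) and between 10.82 and 11.28 in high-fat daughters (median 11.09). The high-fat arrays held both the lowest value, on 629, and the 3 highest values, with a standard deviation of 0.16 against 0.08 in controls. The difference was 0.06 ± 0.07 (adjusted p 0.70, limma) and 0.03 ± 0.07 without control 658.

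Of the VEGF receptors, Kdr lay between 9.33 and 10.08 in controls (median 9.88) and between 9.89 and 10.17 in high-fat daughters (median 9.95). Each of the 6 high-fat arrays was above the control median, while 3 controls lay within the high-fat range. The difference was 0.17 ± 0.11 (adjusted p 0.53, limma), 0.09 ± 0.07 without control 658, and 0.00 with array spread as a covariate. Flt1 lay between 10.07 and 10.82 in controls (median 10.54) and between 10.52 and 10.74 in high-fat daughters (median 10.66). The highest value of all arrays was in control 656 and the lowest in control 658, so the controls enclosed the high-fat group. The difference was 0.08 ± 0.10 (adjusted p 0.68, limma) and 0.00 ± 0.06 without control 658. Vegfa, the ligand of both, lay between 10.15 and 10.64 in controls (median 10.42) and between 10.20 and 10.86 in high-fat daughters (median 10.41). Its difference was 0.05 ± 0.10 (adjusted p 0.80, limma), and it turned to -0.03 without high-fat 629, the array with the highest Vegfa, the highest Ucp1 and much muscle signal. The other genes of the pathway did not pass either. Vegfb differed by 0.16 ± 0.11, Pgf by 0.07 ± 0.10, the co-receptor Nrp1 by 0.10 ± 0.11 and the lymphatic VEGF receptor Flt4 by -0.04 ± 0.13. The oxygen-regulated factors Hif1a and Epas1 differed by 0.03 ± 0.07 and 0.10 ± 0.08.

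Nos3 ranged from 8.75 to 9.26 in controls (median 9.00) and from 9.02 to 9.13 in high-fat daughters (median 9.08). The high-fat values lay close together, with a standard deviation of 0.04 against 0.18, and within the control range. The difference was 0.07 ± 0.07 (adjusted p 0.64, limma). Nos2, the inducible synthase, differed by 0.02 ± 0.08. Lyve1 lay between 11.93 and 12.29 in controls (median 12.19) and between 11.78 and 12.69 in high-fat daughters (median 12.11). The high-fat group held both ends, with 619 lowest and 629 highest. The difference was -0.02 ± 0.12 (adjusted p 0.96, limma) and 0.01 ± 0.13 without control 658, with a 95% interval of -0.28 to 0.25 over all arrays.

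**Figure D3:**
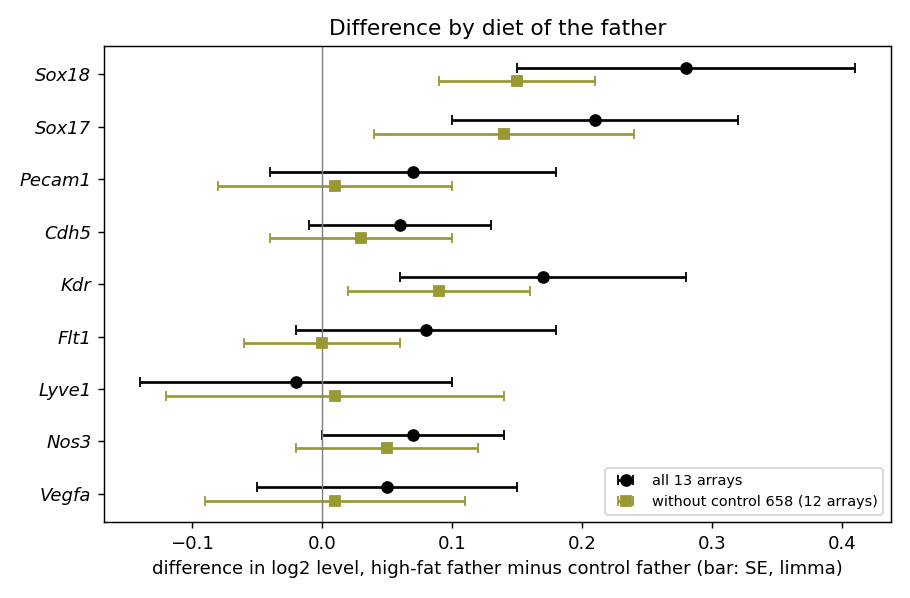
Difference in log2 level, high-fat minus control, of each measured gene with its standard error from limma, over all 13 arrays (black circles) and without control 658 (olive squares). For Sox18 the difference is 0.28 over all arrays and 0.15 without control 658, and no gene passes after adjustment in either fit.

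The difference was also fitted within each range of numbers. For Sox17 it was 0.00 ± 0.13 in daughters 619 to 631 and 0.40 ± 0.15 in daughters 656 to 664, with an unadjusted p of 0.03178 and an adjusted p of 1.0 (limma). Only 0.931% of all genes had an unadjusted p under 0.05 in that range, and 13.7% in the other. The difference between the ranges, tested as an interaction, was 0.40 ± 0.21 for Sox17 with an unadjusted p of 0.07235 and an adjusted p of 1.0. Sox18 differed by 0.15 ± 0.08 and 0.32 ± 0.24 in the 2 ranges, Pecam1 by -0.09 ± 0.14 and 0.24 ± 0.14, and Kdr by 0.18 ± 0.11 and 0.10 ± 0.20. No interaction passed for the 9 genes or for any gene (0.0%), and 3.47% of genes had an unadjusted p under 0.05, none of the 9 among them. Control 658 lies in the range 656 to 664, which held 4 controls and 2 high-fat daughters.

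Across the 13 arrays the genes of blood vessels tended to be high or low on the same arrays, and Lyve1 on others. Pearson's r was above 0 in 29 of the 36 pairs of genes, and 16 pairs had an unadjusted permutation p under 0.05. The shares of all genes with an r above 0 or with such a p were not counted. One of the 16 pairs, Sox18 and Cdh5, had r = 0.60 (permutation p 0.03877). As high an r was found for 27.98% of all genes with Sox18 and for 5.715% with Cdh5. After Benjamini-Hochberg adjustment over the 36 pairs, 5 pairs passed, all with r above 0. Without control 658 none of the 36 passed, and 6 had an unadjusted p under 0.05. An r of 0.7 or more was found in 7 of the 36 pairs and in 2 without control 658. The share of all gene pairs of a member with any other gene at that r was 7.04% and 1.18%. Per gene this share was 18.46% for Kdr, 17.48% for Sox18 and 14.0% for Flt1, and 2.392%, 1.241% and 1.579% without control 658.

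**Figure D4:**
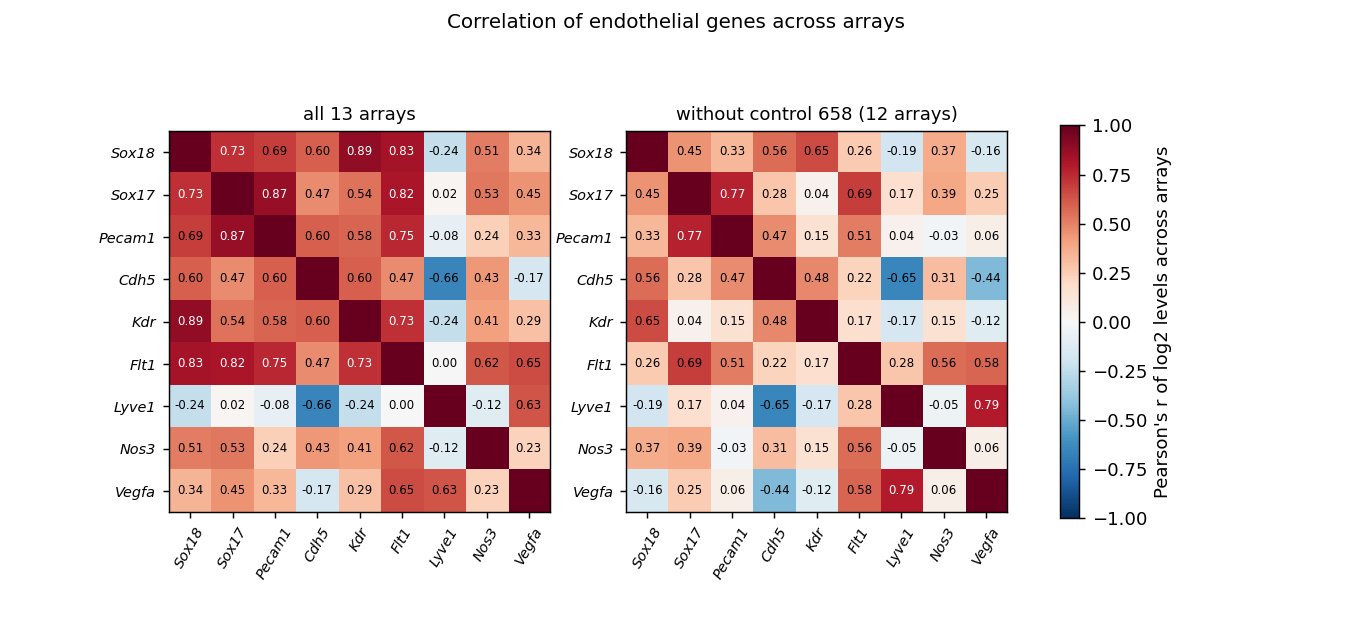
Pearson's r of log2 levels between the 9 measured genes, over all 13 arrays (left) and over 12 arrays without control 658 (right), with the value in each cell. The block from Sox18 to Flt1 runs from 0.47 to 0.89 on the left, and on the right Sox17 with Pecam1 is highest in the block at 0.77.

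The closest pairs were Sox17 with Pecam1 and Sox18 with Kdr. For Sox17 and Pecam1, r was 0.87 (permutation p 0.00018, adjusted p 0.00648) and Spearman's rho was 0.84 (permutation p 0.00058, adjusted p 0.02088). High-fat 620 and controls 622 and 627 were high for both, and control 658 was low for both. Leaving out the 2 arrays farthest from the median of Sox17 gave r = 0.81, and r was 0.90 in daughters 619 to 631 and 0.88 in daughters 656 to 664 (exact permutation p 0.007937 and 0.004167). Without control 658 it was 0.77 with a permutation p of 0.00358 and an adjusted p of 0.08604. Few genes followed these 2 as closely: 0.06205% of all genes had an r with Sox17 as high as that of Pecam1, and 0.02758% had one with Pecam1 as high as that of Sox17.

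For Sox18 and Kdr, r was 0.89 (permutation p 0.00075, adjusted p 0.009) and rho 0.66 (permutation p 0.01667, adjusted p 0.1007). It was 0.48 without the 2 arrays farthest from the median of Sox18 and 0.65 without control 658, so the relation was weaker without those arrays. Leaving out the ends of a gene's range can lower r by itself, so these values do not tell how far the relation rests on them. Within the number ranges r was 0.84 and 0.95 (exact permutation p 0.01528 and 0.09722). Of all genes, 0.7032% had an r with Sox18 as high as that of Kdr. Sox17 and Flt1 had r = 0.82 (permutation p 0.00051, adjusted p 0.009) and rho = 0.80 (permutation p 0.00157, adjusted p 0.02826), with r = 0.64 without the 2 farthest arrays, 0.69 without control 658, and 0.90 and 0.80 in the ranges. Pecam1 and Flt1 had r = 0.75 (permutation p 0.00372, adjusted p 0.03348) and rho = 0.66, and r was 0.42 without the 2 farthest arrays, 0.51 without control 658, and 0.87 and 0.82 in the ranges. Sox18 and Sox17, the 2 factors of 1 family, had r = 0.73 (permutation p 0.00481, adjusted p 0.03463) and rho = 0.51 (permutation p 0.07601). This relation rests on the outlying arrays, since r was 0.27 without the 2 farthest, 0.45 without control 658 and 0.27 in daughters 619 to 631, against 0.81 in daughters 656 to 664. As high an r as that of this pair was found for 14.11% of all genes with Sox18 and for 3.599% with Sox17. For the pair Sox17 and Flt1 the share was 0.3516% with Sox17 and 3.233% with Flt1. For Pecam1 and Flt1 it was 1.193% with Pecam1 and 8.976% with Flt1. With single arrays left out, Sox18 with Sox17 also missed the threshold without controls 622, 631, 662 or 664 or high-fat 620 or 660 (r = 0.69 to 0.77), Pecam1 with Flt1 without controls 622 or 631 or high-fat 620 (0.74 to 0.75), and Sox18 with Kdr without high-fat 620 (0.88, adjusted p 0.06252).

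Some pairs did not pass despite a similar r. Sox18 and Flt1 had r = 0.83 (permutation p 0.01535, adjusted p 0.07159), above 3 of the 5 pairs that passed, with rho = 0.33 and r = 0.26 without control 658. Kdr and Flt1, the receptors of 1 ligand, had r = 0.73 (adjusted p 0.08723) over all arrays and 0.17 without control 658. Flt1 and its ligand Vegfa had r = 0.65 (adjusted p 0.08723), rho = 0.77 (adjusted p 0.03696) and r = 0.58 without control 658. Lyve1 had an r between -0.24 and 0.02 with the other genes except Cdh5 and Vegfa. With Cdh5 it was -0.66 (permutation p 0.01591, adjusted p 0.07159), and -0.12 without the 2 arrays farthest from the median of Cdh5. With Vegfa it was 0.63 (adjusted p 0.08723), 0.86 in daughters 619 to 631 and 0.01 in daughters 656 to 664, so that it was not seen in both ranges.

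Each gene was also set against 4 measures per array, the means of 27 other endothelial genes, of 9 lymphatic genes and of 16 macrophage genes, and the standard deviation of the array, in 36 relations adjusted together. With the endothelial mean, r was 0.94 for Flt1 (permutation p 0.00015, adjusted p 0.0054), 0.92 for Sox18 (adjusted p 0.00972), 0.88 for Kdr (adjusted p 0.00972), 0.77 for Sox17 (adjusted p 0.01224) and 0.72 for Pecam1 (adjusted p 0.02696). Cdh5 (0.62), Nos3 (0.64), Vegfa (0.43) and Lyve1 (-0.20) did not pass. The share of all genes with as high an r to the endothelial mean was not counted. An r of 0.7 or more with Kdr, Sox18 and Flt1 themselves was found for 18.46%, 17.48% and 14.0% of all genes, so an r of 0.7 with these genes was not particular to endothelial genes. These shares are for single genes and a lower r, and do not give the share at the values with the endothelial mean. By rho only Flt1 passed with this mean (0.77, permutation p 0.00289, adjusted p 0.04344). Without the 2 arrays farthest from the median of the mean, which include control 658, r was 0.77 for Flt1 and 0.15 to 0.44 for the other 4, so the size of those 4 relations rests in part on these arrays. Without control 658 alone, r was 0.65 for Sox18 (permutation p 0.02201), 0.61 for Kdr (permutation p 0.0365), 0.55 for Sox17 (permutation p 0.06383) and 0.43 for Pecam1 (permutation p 0.1669). In daughters 619 to 631, which do not include control 658, r was 0.91 for Sox18 and 0.84 for Kdr (exact permutation p 0.005357 and 0.01706), 0.56 for Sox17, 0.64 for Pecam1 and 0.58 for Flt1. With quantile normalization applied again, r was 0.83 for Flt1 and Sox18, 0.69 for Kdr, 0.55 for Sox17 and 0.47 for Pecam1, the last with a permutation p of 0.1013. With the endothelial mean as a covariate, the difference between groups was 0.11 ± 0.06 for Sox18, 0.10 ± 0.09 for Sox17, 0.05 ± 0.07 for Kdr and -0.04 ± 0.05 for Flt1. Array spread moved with 3 of these 5 genes, with r = 0.87 for Kdr (adjusted p 0.00948, rho 0.84), 0.82 for Sox18 (adjusted p 0.01342, rho 0.65) and 0.79 for Flt1 (adjusted p 0.02533, rho 0.41). Without control 658 these were 0.68, 0.50 and 0.44. Sox17 (0.62, adjusted p 0.07148, rho 0.34) and Pecam1 (0.54, adjusted p 0.1269, rho 0.26) did not pass with array spread, and with quantile normalization applied again none of the 36 gene pairs passed. The part of array spread in the relations between genes was not tested beyond these values.

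Lyve1 moved with the mean of the lymphatic genes and with some macrophage genes. Its r with the lymphatic mean was 0.79 (permutation p 0.00079, adjusted p 0.00948) and rho 0.76 (permutation p 0.00362, adjusted p 0.04344). It was 0.79 without the 2 farthest arrays, 0.78 without control 658, and 0.85 and 0.82 in the number ranges (exact permutation p 0.01786 and 0.04722). Leaving out each array in turn gave 0.68 to 0.85, with the lowest value without high-fat 629, and renewed quantile normalization or centring gave 0.81 and 0.80. In the list, Ccl21, a chemokine of lymphatic endothelium, had the widest range (6.65 to 11.03), and r was 0.81 without it. The 9 lymphatic genes were set against Lyve1 one by one after the data were seen. Of them, 4 passed with Lyve1 after adjustment over the 9: Reln (r = 0.74, permutation p 0.00356, adjusted p 0.03204), Flt4 (0.66, adjusted p 0.04086), Ccl21 (0.66, adjusted p 0.04086) and Prox1, the factor that sets lymphatic identity (0.65, adjusted p 0.04322). By rho, Reln (0.71) and Ccl21 (0.69) passed, each with an adjusted p of 0.04617. Pdpn (0.58), Gja1 (0.53), Vegfd (0.23), Nrp2 (0.18) and Vegfc (-0.17) did not pass. Prox1 was dim, from 6.02 to 7.09 with a median of 6.30. Sry, a gene of the Y chromosome, had means of 6.49 in controls and 6.46 in high-fat daughters. Whether the Prox1 signal was above background was not assessed. On high-fat 629, where Lyve1 was 12.69, Flt4 (8.54), Prox1 (7.09) and Pdpn (11.34) were also at their highest. An r of 0.65 or more with Lyve1, as these 4 had, was found for 0.9376% of all genes. With the macrophage mean, Lyve1 had r = 0.48 (adjusted p 0.1854) over all arrays and 0.71 without control 658. It was 0.72 in daughters 619 to 631 and -0.03 in daughters 656 to 664, so that it was not seen in both ranges. Of the 16 macrophage genes, set against Lyve1 one by one after the data were seen, 4 also passed after adjustment over the 16: Cd163 (r = 0.88, permutation p 3e-05, adjusted p 0.00048), the mannose receptor Mrc1 (0.79, adjusted p 0.0088), and the complement genes C1qa (0.71, adjusted p 0.028) and C1qb (0.67, adjusted p 0.03788). By rho, Cd163 (0.88, adjusted p 0.00336) and Mrc1 (0.80, adjusted p 0.01272) passed. Cd163 and Mrc1 followed Lyve1 at a higher r than any of the 9 lymphatic genes. Siglec1 (0.57), C1qc (0.51), Folr2 (0.38) and Csf1r (0.36) did not pass. Neither did the rest of the macrophage genes, with r from -0.21 (Cd14) to 0.11 (Cd68), among them Adgre1 (0.07) and Itgam (0.09). The share of lymphatic and of macrophage RNA in the Lyve1 level was not tested. Vegfa had r = 0.65 with the lymphatic mean (adjusted p 0.04925) and rho = 0.42 (adjusted p 0.3012), so it passed by r alone, with 0.78 under renewed quantile normalization and 0.45 (permutation p 0.141) without high-fat 629.

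**Figure D5:**
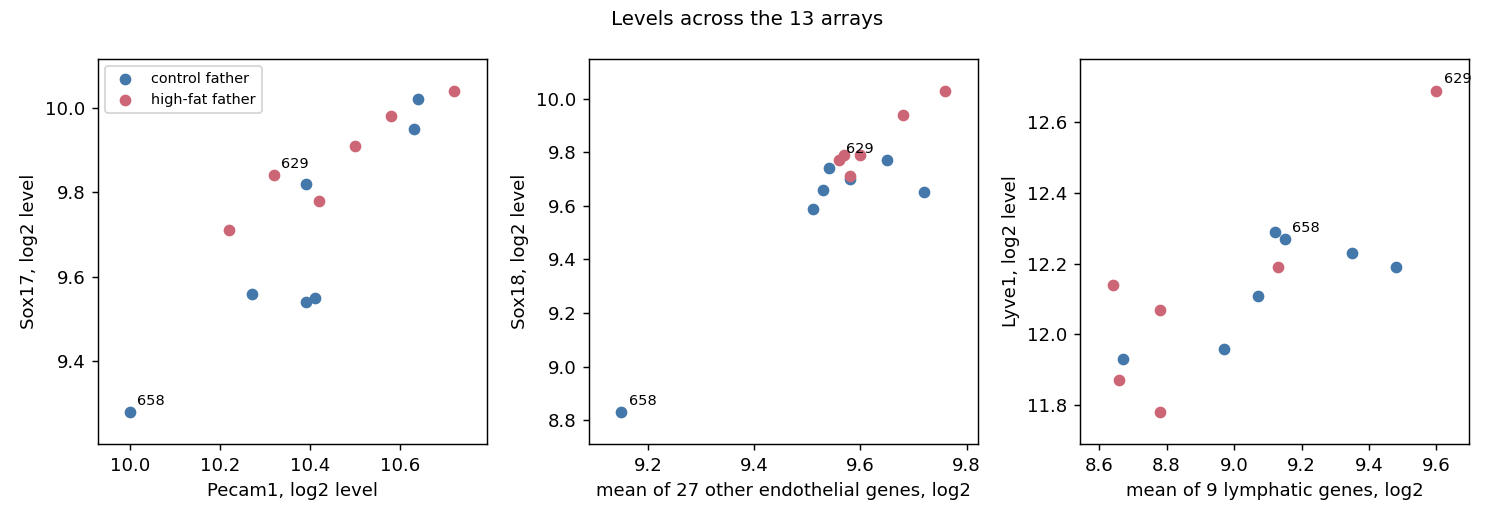
Log2 levels across the 13 arrays, 1 point per array, control fathers in blue and high-fat fathers in red: Sox17 against Pecam1 (left, r = 0.87), Sox18 against the mean of 27 other endothelial genes (middle, r = 0.92, and 0.65 without control 658) and Lyve1 against the mean of 9 lymphatic genes (right, r = 0.79). Control 658 lies alone at the lower left of the left and middle plots and within the other points on the right.

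The genes whose levels were most like those of 5 members over the 13 arrays were taken from all genes, as a description. For Lyve1 they were Ackr2 (r = 0.92), the scavenging chemokine receptor of lymphatic endothelium, Cd163 (0.88), a scavenger receptor of macrophages, Chrm5 (0.86), Aspn (0.83) and Procr (0.83), the endothelial protein C receptor. These stayed at 0.83 to 0.93 without control 658. For Cdh5 they were Frzb (0.93), Aplf (0.90), Vnn3, Rfx5 and Rgs5, a gene of pericytes (each 0.89), and these too stayed at 0.87 to 0.91 without that array. For Vegfa they were Specc1, Ttc9 and Fut8 (each 0.95), the guidance factor Sema3d (0.91) and Abat (0.90), at 0.90 to 0.95 without control 658. For Sox18 they were Oga (0.97), Tcf20 (0.96), Hspa12b, Scarf1 and Ssu72 (each 0.95), with 0.68 to 0.90 without control 658. For Kdr they were Dnajc14 and Ncstn (each 0.96), Ppp4r1, Fndc3a and Csk (each 0.95), with 0.85 to 0.89 without it.

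In the wider vascular gene lists, most genes of blood vessel endothelium had a higher mean in high-fat daughters, but 0 genes passed after adjustment in any list (0.0% of all genes). The mean was higher in high-fat daughters for 58.0% of all genes. Of the 99 genes of the vascular lists, 79 lay above the middle of the mean levels, where the median difference of all genes was 0.09. Genes of other cells differed too: 16 of 18 adipocyte genes were higher, 5 of them with an unadjusted p under 0.05 (median 0.09, and 0.14 without control 658), while 0 of 11 mesothelial genes (median -0.34), 0 of 16 T and NK lymphocyte genes (-0.14) and 1 of 18 skeletal muscle genes (-0.15) were. With renewed quantile normalization these counts were 15, 3, 3 and 1, and their part in the endothelial values was not tested. Among 27 other endothelial genes 24 were higher (median difference 0.10), while 19 were with quantile normalization applied again (0.04), 20 with each array centred on its median (0.06), 18 without control 658 (0.05) and 13 with array spread as a covariate (-0.01). For all genes the median was 0.03, 0.01, -0.01, 0.01 and 0.00 in these fits. Cyyr1 (0.33 ± 0.11, unadjusted p 0.01093, limma) and Sox7 had an unadjusted p under 0.05, while the angiopoietin receptor Tek (0.13 ± 0.10) and its relative Tie1 (0.10 ± 0.09) did not. With Car4, described next, they were 3 of the 99 genes of the vascular lists with such a p. This share is below the 7.96% of all genes (5.42% higher and 2.54% lower), but it was not below in every fit. With single arrays left out the count was 2 to 13 of the 99, with 13 without high-fat 629 (8.57% of all genes). It was 5 without the 4 muscle arrays (3.79%) and 6 with the endothelial mean as a covariate (3.5%). With array weights it was 9 (15.0%), and with array spread as a covariate 2 (2.98%). Among 9 genes of fatty acid handling in capillaries, 8 were higher (median 0.07), and 6 were with renewed quantile normalization, with centring and without control 658. This list was led by Car4, a carbonic anhydrase on capillary endothelium (0.31 ± 0.11, unadjusted p 0.01067, limma, and 0.29 without control 658). Gpihbp1, which carries lipoprotein lipase to the capillary wall, differed by 0.12 ± 0.07.

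Among 12 arterial and Notch genes 10 were higher (median 0.07), but 6 with renewed quantile normalization (0.00) and 3 with array spread as a covariate (-0.04). Among 7 venous genes 5 were higher (0.07), and 3 with renewed quantile normalization (0.00). Among 13 endothelial transcription factors 12 were higher (0.07), but 6 without control 658 (-0.01) and 5 with array spread as a covariate (-0.05). Among 17 genes of VEGF signalling and oxygen sensing 13 were higher (0.06), and 10 with renewed quantile normalization (0.00). Nitric oxide pathway genes were split, with 8 of 16 higher (0.00), and 6 with renewed quantile normalization (-0.01). The lymphatic list had 3 of 9 genes higher and a median of -0.13, and 0 to 2 genes higher in the other 4 fits (medians -0.17 to -0.05). Its largest difference was that of Ccl21 (-1.08 ± 0.71, unadjusted p 0.1478, limma), and Prox1 and Pdpn differed by -0.15 ± 0.16 and -0.13 ± 0.13. Prox1 was dim, as described above, with a median of 6.30, while Sry ranged from 6.38 to 6.62 over the arrays. Prox1 lay above that range on high-fat 629 (7.09) and control 656 (6.94).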

How the data were processed

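Fat RNA of 13 rats was hybridised as biotin-labelled cRNA to Affymetrix arrays. The authors deposited log2 values made with RMA and Partek, per the submitters' processing notes, with versions, order of steps and filters not given in the sources used here. RMA draws arrays toward a common distribution, and remaining differences in spread can move bright and dim genes apart. No scanner files were used, so detection was not assessed. Groups came from the sample titles. Of 29214 probes, 15310 had 1 symbol in the platform annotation, 323 several, and 13581 were not listed. Entrez identifiers of 15279 matched the RefSeq table (GRCr8), with 0 symbols updated. The brightest probe per symbol left 14506 genes, unfiltered.

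Two-sided comparisons of the groups were made in limma 3.58.1 (lmFit, eBayes; R 4.3.3), and p-values were adjusted by Benjamini-Hochberg over the 14506 genes, with a threshold of 0.05. Correlations used two-sided tests with 100000 permutations, or all arrangements within number ranges. With Vwf unmeasured, 36 pairs were tested. Members, lists and the rule for named genes were chosen with earlier results of these data known. The rule took all members, the genes of lowest p in each list, the 5 nearest genes of 5 members and 12 vascular genes. Alternatives covered normalization, gene choice, variance model, covariates (array spread, muscle, endothelial level, number range) and left-out arrays. Spearman's rho, the ranges and left-out arrays and scalings for relations with array measures, and the scalings of the lists, were added after seeing the data. So were the lymphatic list without Ccl21 and Lyve1 against single lymphatic genes and single macrophage genes. Scripts were tested on simulated data.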

Additional observations from a re-analysis of the deposited data

Results flagged for a closer look

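Sox18 on control 658 was 8.83, far below the other 6 controls. Its gap to the next control was 0.809 of the range of the group, above Dixon's limit of 0.568 for 7 samples. It was the only such value among 18 combinations of gene and group, and chance flags about 1 in 20 groups. Flt1 in controls, also lowest on control 658, came just short of the same limit, at 0.566.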

How the results depend on the processing

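Members called after adjustment (0), members with a called interaction (0) and called genes among the other vascular lists (0) were the same under each alternative run. The count of called gene pairs, 5 over all arrays, was 3 by Spearman's rho, 3 with each array centred on its median, 8 without the 4 muscle arrays (controls 662 and 664, high-fat 619 and 629), and 0 with quantile normalization applied again, without the 3 arrays of smallest spread, without the 2 farthest arrays and within either number range. Leaving out each array gave 0 to 8 pairs (0 without control 658, 2 without high-fat 620, 3 without control 622 or 631, 8 without control 627). The number of members with an unadjusted p under 0.05 was 0 to 2. Differences that changed sign were all near 0. With quantile normalization applied again they were -0.02 for Pecam1 and for Cdh5, -0.00 for Flt1, -0.01 for Nos3 and -0.04 for Vegfa. With array spread as a covariate they were -0.03 for Pecam1, -0.06 for Flt1, 0.02 for Lyve1 and -0.02 for Vegfa. With the endothelial mean as a covariate they were -0.03 for Pecam1, -0.04 for Flt1 and 0.02 for Lyve1. Without the 3 arrays of smallest spread they were -0.04 for Pecam1 and 0.01 for Lyve1, and for Vegfa -0.01 with array weights and -0.03 without the 4 muscle arrays. In daughters 619 to 631 they were -0.00 for Sox17 and Nos3, -0.09 for Pecam1 and 0.00 for Lyve1. Leaving out single arrays gave -0.13 to 0.05 for Lyve1 and -0.03 to 0.11 for Vegfa. The causes were not tested. No paired analysis was possible because the labels do not give litters or fathers by which daughters could be paired. Detection above background was not assessed.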
